A study of Oryza sativa Japonica Group with 238 samples.

Results

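The 132 genes described here are those of the 28248 genes in a deposited rice root expression table whose description names auxin, Aux/IAA or SAUR. The words were matched in any case, and no measured value is part of the rule, which was chosen with earlier results of these data known. The rule excludes 1 further gene that the words match, OS03G0836800. Sorted by what the descriptions say, they comprise 24 Aux/IAA repressors, 23 SAUR (small auxin up RNA) genes, 21 auxin response factors (ARF), 15 efflux carriers, 3 influx carriers and 6 other genes tied to auxin transport. A further 6 are auxin synthesis enzymes, 6 belong to the GH3 conjugation family, 2 are amidohydrolases that release auxin from conjugates, 3 are dormancy-associated or auxin-repressed genes, 6 resemble an auxin-independent growth promoter and 17 carry the word in some other way. The last group holds genes of other function, such as OS02G0121300, a cyclophilin of auxin signalling, OS07G0687200, similar to an auxin-regulated calmodulin, and OS04G0288100, similar to the auxin-binding protein ABP20. "Similar to" in a description is a resemblance found by sequence, so the roles are those of the best match and were not tested in rice by these data. Gene names below are the descriptions in the deposited table.

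Auxin is made from tryptophan, by an aminotransferase and then by YUCCA-type flavin monooxygenases. It enters cells through influx carriers of the AUX1 type and leaves them through PIN-type efflux carriers, whose placement gives auxin its direction of flow and builds a maximum at the root tip. In the nucleus auxin binds a receptor formed by a TIR1-type F-box protein and an Aux/IAA repressor, which marks the repressor for breakdown and frees the ARF factors to act on target genes. Many Aux/IAA, SAUR and GH3 genes are themselves induced by auxin, GH3 enzymes couple auxin to amino acids, and amidohydrolases set it free again. In roots the hormone is known for its part in meristem upkeep, lateral and crown root formation, root hair growth and gravitropism.

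The RNA was measured in 187 libraries from whole roots of transgenic Oryza sativa cv. Nipponbare. In 157 of them it was translated RNA recovered by TRAP, in which a tagged ribosomal protein (HF-GFP-OsRPL18) is pulled down with the transcripts it carries. The other 30 were TOTAL, whole-root poly(A)+ RNA of the 35S line. Each TRAP line carries the tag under 1 promoter, and the promoter decides which cells are sampled. The near-constitutive 35S promoter is not tied to 1 cell type, but its TRAP libraries differed from whole-root TOTAL RNA, as values below show. RSS1 is a gene of proliferating cells, QHB a homeobox gene that marks the quiescent centre, LSI1 a silicon transporter of the exodermis and endodermis, CASP a Casparian strip gene, and AtSCR (written SCR here) the Arabidopsis SCARECROW promoter, known from the endodermis. The labels do not say which cells the CMZ promoter marks. Chromatin access was measured by ATAC-seq in 51 libraries of nuclei tagged with NTF2, of which the 35S nuclei are used here.

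The stressed plants were 26 days old and had been kept without watering (water deficit), in standing water over the roots (waterlogging) or wholly under water (submergence). Recovery plants were 27 days old, after 1 day of irrigation that followed the deficit or 1 day of drainage that followed the flooding. Field plants had grown in a paddy to an age of 49 days and plate seedlings on agar to 7 days. The references were well-watered greenhouse plants of 26 days, named control I and control II in the labels. The labels do not say which control belongs to which stress: control II occurs in the line and RNA sets that have submergence libraries and is used for them, and control I is used elsewhere. The submergence tanks were covered with shade cloth, so water and shade cannot be told apart. Every plant, controls included, carried a transgene, from early-generation seed. A greenhouse replicate was 1 pot whose plants were pooled, field and plate replicates are called independent without a pot or plant count used here, and each group compared had 3 libraries.

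The expression values are TPM, transcript shares of a library scaled by gene length, which can be set side by side between genes, but keep no read depth. Replicate libraries correlated at 0.732 to 0.988 (median 0.937) over all genes. The labels of 3 lines held against their own genes in control I, and those of CMZ, SCR and CASP were not checked in this way. The QHB gene ranged over 107 to 211 TPM in the QHB line, against 0.118 to 0.397 TPM in 35S TRAP, and LSI1 over 2409 to 2599 TPM in the LSI1 line, against 293 to 449.9 TPM. The RSS1 gene ranged over 319 to 687 TPM in the RSS1 line, against 3.98 to 10.4 TPM. Summed TPM of 58 histone and cyclin genes, markers of proliferating cells, is given beside the results below. None of them is listed at 0 in any group compared, but the deposited values appear to have a floor above 0. OS09G0546200 and OS12G0626200, for example, both ranged over 0.2949 to 0.4048 TPM in QHB plate libraries, with the same median of 0.3509 TPM. The absence of 0 therefore does not show that a gene was detected. The sum of 45 green-tissue genes was 339 to 1009 TPM in the submergence libraries of RSS1 and 35S, against 63 to 197 TPM in their control II libraries. On plates it was 202 to 304 TPM in QHB and 822 to 1133 TPM in RSS1, against 6463 to 21654 TPM in 35S TRAP. The part of these markers in the results was not tested. In such bulk samples fewer cells of a type and less RNA per cell cannot be told apart.

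Mean levels over the 187 libraries ran from 0.440 TPM to 2295 TPM, the highest being OS02G0121300, the cyclophilin. Among the auxin pathway genes proper, the dormancy and auxin-associated genes OS03G0342900 and OS09G0437500 averaged 247 and 167 TPM, the flavin monooxygenase OS04G0128900 averaged 165 TPM, and the Aux/IAA repressors OS05G0230700 and OS12G0601400 averaged 164 and 159.9 TPM. The leading ARF factor was OS01G0927600 with 134 TPM, the leading SAUR gene OS02G0512000 with 105 TPM, the leading efflux carrier OS02G0743400, described as REH1, with 67.7 TPM, and the leading influx carrier OS01G0856500 with 62.0 TPM. GH3 genes were low, and OS07G0592600, an indole-3-acetic acid (IAA)-amido synthetase, led them with 33.9 TPM. At the low end, the bHLH-like gene OS04G0526000 reached 1 TPM in 9 of the 187 libraries and the GH3 gene OS01G0785400 in 21.

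To place the genes relative to 35S TRAP, which is not the same as whole-root RNA, 4 TRAP lines were compared with it in control I. These were QHB, RSS1, CMZ and LSI1. SCR and CASP were not compared in this way and have no calls. Differences were tested with limma on log2(TPM + 1) over all genes, and calls required both a Benjamini-Hochberg adjusted p under 0.05 and a log2 fold change of 1 or more in size. Beside each count stands the share of all tested genes that was called. This scale understates the change of low genes. Of the 130 members tested, 55 were called in QHB, 39 higher and 16 lower, against 25.0% of all genes, 15.1% higher and 9.93% lower. In the RSS1 line 24 were higher and 11 lower, against 14.9% of all genes, 10.1% higher and 4.73% lower. In CMZ 32 were higher and 8 lower, against 27.0% of all genes, 17.0% higher and 9.95% lower. In LSI1 9 were higher and 24 lower, against 17.8% of all genes, 7.68% higher and 10.2% lower. The median log2 fold change of the members was 0.329 in QHB, against 0.192 for all genes, 0.325 in CMZ, against 0.118, and 0.0475 in RSS1, against 0.0396. In LSI1 it was -0.132 for the members, against 0.280 for all genes. With each library's median set equal, the CMZ calls split into 26 higher and 16 lower. These comparisons share the same 35S libraries.

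The most QHB-high member was an influx carrier, the kind of protein that takes auxin up into cells. OS10G0147400, similar to an auxin influx carrier, had 95.2, 133 and 164 TPM in QHB, 22.4, 23.7 and 28.4 TPM in RSS1 and 21.1, 9.67 and 19.5 TPM in CMZ, against 1.10, 0.406 and 1.13 TPM in 35S TRAP. Every QHB library lay above every RSS1 library, and all of these lay above 35S TRAP (log2 fold change 6.12 ± 0.42, limma adjusted p = 1.1e-09 in QHB, and log2 fold change 3.80 ± 0.42, limma adjusted p = 1.56e-06 in RSS1). The LSI1 libraries held 0.751, 1.54 and 0.733 TPM, and overlapped with 35S TRAP. OS04G0128900, a flavin monooxygenase of auxin synthesis, had 318, 213 and 237 TPM in QHB, 146, 160.2 and 105 TPM in RSS1 and 221, 221 and 85.5 TPM in CMZ, against 11.3, 5.12 and 6.20 TPM in 35S TRAP (log2 fold change 4.96 ± 0.46, limma adjusted p = 7.82e-08 in QHB). Its SCR and CASP libraries held 105, 151 and 166 TPM and 122, 173 and 34.0 TPM, also above all 35S TRAP libraries, while LSI1 libraries held 8.43, 4.42 and 6.67 TPM. Of the 6 synthesis genes tested, 4 were called higher in QHB, 2 in CMZ and 1 in RSS1, and 2 were called lower in LSI1.

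The other influx carriers followed other patterns. OS01G0856500, described as an auxin transporter of primary root and root hair elongation, had 150.3, 173 and 220.3 TPM in QHB and 8.12, 5.47 and 6.21 TPM in LSI1, against 65.9, 45.4 and 46.9 TPM in 35S TRAP. It was higher in QHB (log2 fold change 1.77 ± 0.32, limma adjusted p = 0.000253) and lower in LSI1 (log2 fold change -2.82 ± 0.32, limma adjusted p = 1.77e-06), with no overlap in either case. OS05G0447200, similar to auxin transporter-like protein 1, had 126, 94.8 and 132 TPM in QHB, 11.5, 18.5 and 9.15 TPM in RSS1 and 1.61, 1.92 and 2.77 TPM in LSI1, against 37.2, 28.0 and 28.7 TPM in 35S TRAP. All 3 influx carriers were called higher in QHB, and the fall of OS05G0447200 in LSI1 was the largest of the 3 in that line (log2 fold change -3.39 ± 0.38, limma adjusted p = 1.49e-06).

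Of 15 efflux carriers, 5 were called higher and 2 lower in QHB, 5 higher and 3 lower in RSS1 and in CMZ, and 1 higher and 5 lower in LSI1. OS06G0232300, similar to REH1, had 122, 154 and 205 TPM in QHB, 30.0, 46.5 and 43.9 TPM in RSS1 and 2.47, 2.38 and 2.04 TPM in LSI1, against 8.34, 7.29 and 6.68 TPM in 35S TRAP (log2 fold change 4.23 ± 0.28, limma adjusted p = 5.87e-10 in QHB). OS02G0743400, the REH1 gene itself, had 236, 255 and 279 TPM in QHB, 93.7, 98.2 and 96.8 TPM in RSS1 and 8.18, 8.67 and 7.89 TPM in LSI1, against 32.1, 22.5 and 25.0 TPM in 35S TRAP (log2 fold change 3.24 ± 0.21, limma adjusted p = 3.66e-10 in QHB). Both REH1 genes thus ran in the order QHB, RSS1, 35S TRAP and LSI1, with no overlap between neighbours. OS06G0660200, similar to an auxin efflux carrier, was instead highest outside QHB, with 35.6, 39.0 and 12.9 TPM in CMZ, 24.9, 32.0 and 32.7 TPM in RSS1 and 3.51, 12.8 and 8.88 TPM in QHB, against 0.934, 0.375 and 0.289 TPM in 35S TRAP. It was called in RSS1 (log2 fold change 4.35 ± 0.49, limma adjusted p = 1.67e-06) and in CMZ (log2 fold change 4.18 ± 0.49, limma adjusted p = 2.08e-06).

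The reverse held for OS01G0919800, similar to an efflux carrier of polar auxin transport. It had 0.345, 2.39 and 3.30 TPM in QHB, 10.5, 6.84 and 3.07 TPM in RSS1, 2.47, 11.3 and 7.62 TPM in CMZ and 1.69, 1.38 and 2.62 TPM in LSI1, against 36.8, 63.5 and 46.1 TPM in 35S TRAP. All 12 libraries of these lines lay below all 3 of 35S TRAP (in QHB log2 fold change -4.17 ± 0.51, limma adjusted p = 2.84e-06). OS01G0802700, an efflux carrier domain protein, was lowest in the LSI1 line, with 2.65, 3.61 and 4.89 TPM, against 42.1, 38.0 and 38.5 TPM in 35S TRAP (log2 fold change -3.13 ± 0.35, limma adjusted p = 1.61e-06). OS01G0818000, of the same description, was higher there, with 127, 82.8 and 105 TPM in LSI1, against 33.5, 34.1 and 47.4 TPM in 35S TRAP (log2 fold change 1.43 ± 0.31, limma adjusted p = 0.00197). These carriers, unlike the REH1 genes, were not called higher in QHB.

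Among the Aux/IAA repressors, 11 of 24 were called higher and 1 lower in QHB, 7 higher and 2 lower in CMZ, 6 higher and 1 lower in RSS1, and 2 higher and 6 lower in LSI1. OS12G0601400 had 353, 558 and 528 TPM in QHB, 206, 298 and 302 TPM in RSS1 and 161, 219 and 139 TPM in CMZ, against 29.3, 31.5 and 19.9 TPM in 35S TRAP (log2 fold change 4.10 ± 0.28, limma adjusted p = 7.13e-10 in QHB). Its neighbour in the gene numbering, OS12G0601300, had 259, 272 and 364 TPM in QHB, against 14.4, 13.2 and 18.3 TPM in 35S TRAP, and since both match the same Aux/IAA fragment they may share reads. OS02G0228900, similar to IAA18, had 45.2, 52.1 and 59.8 TPM in QHB and 31.0, 35.0 and 31.1 TPM in RSS1, against 2.62, 2.91 and 0.800 TPM in 35S TRAP (log2 fold change 4.17 ± 0.60, limma adjusted p = 2e-05 in QHB). None of these groups overlapped with 35S TRAP. OS03G0633500, similar to IAA11, had 52.1, 46.6 and 54.0 TPM in RSS1 and 30.2, 29.6 and 23.2 TPM in CMZ, against 5.62, 3.75 and 2.23 TPM in 35S TRAP (log2 fold change 3.47 ± 0.50, limma adjusted p = 3.75e-05 in RSS1).

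**Figure D1:**
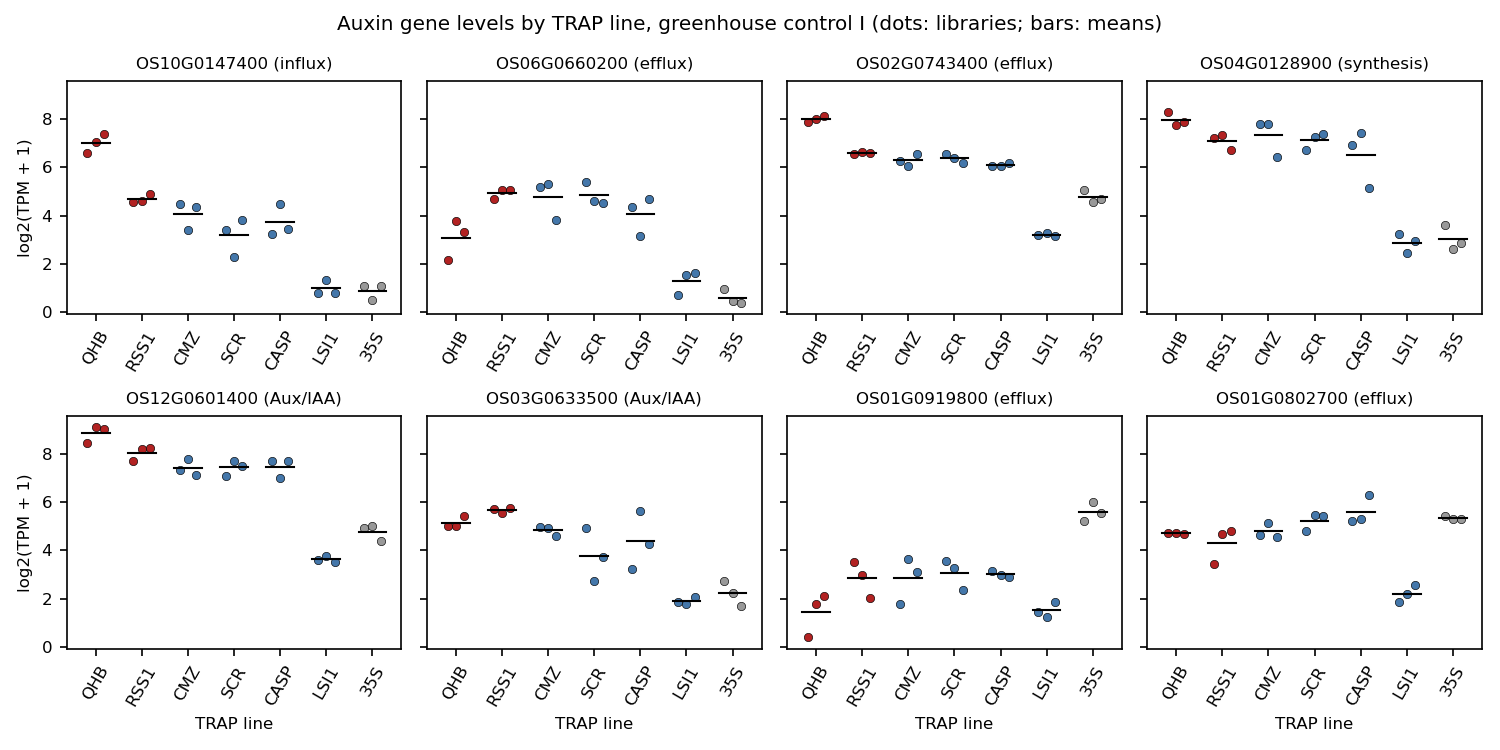
Level of 8 auxin genes in each TRAP line of greenhouse control I. The y axis is log2(TPM + 1), dots are libraries, bars are means of 3 libraries, and 35S stands last; OS10G0147400 is above 90 TPM in QHB alone, and OS01G0919800 is above 30 TPM in 35S alone.

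SAUR genes, early auxin targets of largely open function, went both ways: 5 of 22 were called higher and 6 lower in QHB, and 6 higher and 0 lower in CMZ. OS09G0437400 had 101, 104 and 111 TPM in QHB, 49.4, 73.3 and 75.3 TPM in RSS1 and 38.0, 29.3 and 24.7 TPM in CMZ, against 3.80, 3.43 and 3.02 TPM in 35S TRAP (log2 fold change 4.59 ± 0.32, limma adjusted p = 1.26e-09 in QHB). OS02G0512000 stood out in the LSI1 line, with 377, 352 and 337 TPM, against 75.8, 56.4 and 117 TPM in 35S TRAP (log2 fold change 2.15 ± 0.50, limma adjusted p = 0.00384). So did OS08G0453200, similar to an auxin-repressed protein, with 476, 237 and 276 TPM in LSI1, against 74.7, 80.8 and 91.8 TPM in 35S TRAP (log2 fold change 1.93 ± 0.37, limma adjusted p = 0.000652). Of the ABCB-type transporter OS04G0459000, a class of ATP-driven pumps that includes auxin transporters, CMZ held 23.5, 21.5 and 24.8 TPM, against 2.36, 1.79 and 1.89 TPM in 35S TRAP (log2 fold change 3.01 ± 0.35, limma adjusted p = 1.68e-06). Of the ARF factors, which bind DNA, 4 of 21 were called higher and 1 lower in QHB, and 0 higher and 3 lower in LSI1.

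Several genes that were high in these lines were low in 35S TRAP but not in TOTAL RNA of the same 35S line, which is set beside them here without a test. OS10G0147400 had 9.14, 10.0 and 9.07 TPM in TOTAL, OS06G0660200 12.1, 17.2 and 17.0 TPM and OS12G0601400 168, 192 and 172 TPM, each above its 35S TRAP libraries. OS01G0919800 went the other way, with 4.70, 8.18 and 8.76 TPM in TOTAL. The proliferation sum was 7046 to 8806 TPM in QHB, 6247 to 8719 TPM in RSS1, 5508 to 7705 TPM in CMZ and 3669 to 4535 TPM in LSI1, against 3590 to 3826 TPM in 35S TRAP. In TOTAL of control I every library lay above this 35S TRAP range, with the values given below for water deficit. A call against 35S TRAP is therefore not a call against whole-root RNA. Of the 58 genes 34 were called higher in QHB, 28 in RSS1, 30 in CMZ and 5 in LSI1, and their part in these differences was not tested.

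The line differences were measured again in plants of other ages. In the field 20 of 129 members were higher and 5 lower in QHB than in 35S TRAP, against 9.32% of all genes, 6.87% higher and 2.45% lower. In RSS1 12 were higher and 3 lower, against 7.73% of all genes, 6.19% higher and 1.54% lower. The RSS1 count was 9 without 35S field replicate 2, and its split was 11 higher and 5 lower with library medians set equal. On plates 48 were higher and 16 lower in QHB, against 37.0% of all genes, 21.3% higher and 15.8% lower. In RSS1 29 were higher and 4 lower there, against 16.9% of all genes, 10.6% higher and 6.32% lower. The median log2 fold change on plates was 0.573 for the members, against 0.320 for all genes, in QHB, and 0.223, against 0.132, in RSS1. Of the 39 genes higher in QHB in control I, 20 (51.3%) were also higher in the field, which is 100% of the 20 called there, and 34 (87.2%) on plates, 70.8% of the 48 called there. OS01G0190300, similar to IAA26, was called in the opposite direction on plates, alone among the 39. Of the 24 genes higher in RSS1 in control I, 11 (45.8%) were also higher in the field, 91.7% of those called there, and 22 (91.7%) on plates, 75.9% of those called there. The lower genes recurred in smaller shares. Of the 16 lower in QHB in control I, 2 (12.5%) were also lower in the field, 40% of the 5 called there, and 10 (62.5%) on plates, 62.5% of the 16 called there. Of the 11 lower in RSS1, 2 (18.2%) were also lower in the field, 66.7% of the 3 called there, and 2 (18.2%) on plates, 50% of the 4 called there. The same shares for all genes were not taken, and each environment was compared with its own 35S TRAP libraries. Whether the recurrence is particular to auxin genes was therefore not tested, and it is not read as such.

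The influx carrier OS10G0147400 was again much higher in QHB. It had 65.7, 140.2 and 80.4 TPM in QHB, against 1.09, 1.25 and 1.52 TPM in 35S TRAP in the field (log2 fold change 5.33 ± 0.40, limma adjusted p = 7.02e-09), and 219, 217 and 174 TPM, against 1.91, 3.04 and 2.30 TPM on plates (log2 fold change 5.91 ± 0.31, limma adjusted p = 5.87e-12). OS12G0601400 had 637, 632 and 589 TPM in QHB, against 27.4, 33.5 and 38.6 TPM in 35S TRAP on plates (log2 fold change 4.19 ± 0.18, limma adjusted p = 5.06e-13). In the opposite direction, OS01G0919800 had 17.2, 8.26 and 4.38 TPM in QHB, against 243, 156 and 72.7 TPM in 35S TRAP in the field (log2 fold change -3.87 ± 0.50, limma adjusted p = 1.41e-05). The groups did not overlap in any of these contrasts. OS04G0288100, similar to ABP20, had 12.6, 24.0 and 21.1 TPM in QHB, against 388, 279.9 and 316 TPM in 35S TRAP on plates (log2 fold change -4.06 ± 0.25, limma adjusted p = 7.5e-11), in libraries where 39 of the 45 green-tissue genes were also called lower in QHB and 42 of the 58 proliferation genes higher.

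Water deficit was compared with control I in 6 sets of libraries, each with its own control libraries. In TOTAL RNA 12 of 124 members were higher and 22 lower under deficit, against 21.5% of all genes, 10.6% higher and 10.9% lower. In 35S TRAP 6 were higher and 13 lower, against 14.4% of all genes, 6.03% higher and 8.38% lower, and in RSS1 11 higher and 12 lower, against 14.5% of all genes, 6.83% higher and 7.68% lower. In QHB 6 were higher and 22 lower, against 13.3% of all genes, 5.87% higher and 7.38% lower, in LSI1 5 higher and 18 lower, against 14.8% of all genes, 7.29% higher and 7.49% lower, and in CMZ 2 higher and 15 lower, against 7.88% of all genes, 3.45% higher and 4.43% lower. The QHB count of 28 was 18 without control I replicate 3 or any 1 of the 3 deficit libraries. The CMZ count of 17 was 9 without control I replicate 2 or deficit replicate 3, and 11 with only its 2 groups in the fit. The members' median log2 fold change was below that of all genes in each set, at -0.155, against 0.0789, in TOTAL, -0.313, against -0.0377, in 35S TRAP, and -0.448, against -0.0662, in CMZ. Over the 6 sets, 63 members were called at least once, 20 of them higher and 46 lower in at least 1 set, 3 of these in both directions, and 69 were called in none. The share of all genes called over the 6 sets was not taken, so these summed counts are not read as a trait of the members. TOTAL and TRAP libraries of the 35S line may come from the same pots, so these sets may not be independent.

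Most efflux carriers were not called under deficit, and those that were called were mainly lower. In TOTAL 0 of 14 were higher and 5 lower, in 35S TRAP 1 of 13 higher and 2 lower, and in RSS1 1 of 15 higher and 3 lower. In QHB 0 of 15 were higher and 4 lower, in LSI1 0 of 13 higher and 1 lower, and in CMZ 0 of 14 higher and 3 lower. OS01G0802700 was called lower in all 6 sets. It had 2.16, 1.21 and 0.909 TPM in deficit roots, against 7.64, 29.8 and 25.7 TPM in control I in TOTAL RNA (log2 fold change -3.02 ± 0.44, limma adjusted p = 5.42e-06), and 2.97, 1.77 and 2.12 TPM, against 42.1, 38.0 and 38.5 TPM in 35S TRAP (log2 fold change -3.64 ± 0.25, limma adjusted p = 4.8e-11). In QHB it had 3.65, 1.87 and 2.58 TPM under deficit, against 25.3, 25.8 and 24.4 TPM in control I (log2 fold change -2.85 ± 0.36, limma adjusted p = 0.000175), and the groups were apart in each of these sets. OS01G0919800 had 3.64, 3.67 and 1.32 TPM in deficit, against 36.8, 63.5 and 46.1 TPM in control I in 35S TRAP (log2 fold change -3.72 ± 0.45, limma adjusted p = 8.67e-07), where its control level was highest among the lines, and it was also called lower in TOTAL and RSS1. OS06G0660200 had 2.15, 2.11 and 2.17 TPM in deficit, against 12.1, 17.2 and 17.0 TPM in control I in TOTAL (log2 fold change -2.37 ± 0.23, limma adjusted p = 1.34e-08). OS02G0743400 had 65.2, 94.6 and 78.2 TPM in deficit, against 236, 255 and 279 TPM in control I in QHB (log2 fold change -1.70 ± 0.20, limma adjusted p = 0.000102). In each of these the deficit libraries lay below the controls. The rise among carriers in 35S TRAP was OS08G0529000, described as an efflux carrier of auxin homeostasis, with 8.51, 9.85 and 8.73 TPM in deficit, against 2.24, 0.865 and 0.965 TPM in control I (log2 fold change 2.13 ± 0.45, limma adjusted p = 0.00101).

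Among the influx carriers 2 of 3 were called lower in TOTAL, in 35S TRAP and in QHB. OS01G0856500 had 14.7, 16.9 and 10.3 TPM in deficit, against 65.9, 45.4 and 46.9 TPM in control I in 35S TRAP (log2 fold change -1.85 ± 0.26, limma adjusted p = 7.89e-06), without overlap, and was called lower in 5 of 6 sets. In RSS1, the set where it was not called, its log2 fold change was -0.85. OS05G0447200 had 15.7, 38.1 and 43.1 TPM in deficit, against 126, 94.8 and 132 TPM in control I in QHB (log2 fold change -1.94 ± 0.32, limma adjusted p = 0.00141), again without overlap, and was also called lower in 35S TRAP. No GH3 gene and no synthesis gene among the members was called in TOTAL or 35S TRAP, and the flavin monooxygenase OS04G0128900 was not called in any of the 6 sets (log2 fold changes -0.60 in TOTAL and 0.90 in CMZ).

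Of the Aux/IAA repressors 1 was higher and 5 lower of 24 in TOTAL, 2 higher and 6 lower in QHB, and 2 higher and 6 lower of 23 in LSI1. OS06G0166500, similar to IAA20, was called higher in all 6 sets. It had 61.6, 50.9 and 74.8 TPM in deficit, against 14.7, 12.3 and 10.2 TPM in control I in TOTAL (log2 fold change 2.24 ± 0.30, limma adjusted p = 2.16e-06), and 55.9, 55.3 and 59.1 TPM, against 10.9, 9.75 and 8.78 TPM in QHB (log2 fold change 2.42 ± 0.33, limma adjusted p = 0.000278). Repressors of this family hold back ARF factors, and most of the other calls were falls. OS12G0601400 went the opposite way, with 33.3, 23.2 and 35.5 TPM in deficit, against 168, 192 and 172 TPM in control I in TOTAL (log2 fold change -2.51 ± 0.30, limma adjusted p = 2.52e-07). OS03G0633500 had 0.970, 2.19 and 1.57 TPM in deficit, against 30.2, 29.6 and 23.2 TPM in control I in CMZ (log2 fold change -3.49 ± 0.43, limma adjusted p = 5.41e-06). OS07G0182400, an Aux/IAA family protein, had 2.34, 3.43 and 2.24 TPM in deficit, against 25.6, 22.4 and 19.5 TPM in control I in LSI1 (log2 fold change -2.69 ± 0.35, limma adjusted p = 3.16e-05). OS01G0741900, described as an Aux/IAA gene of drought tolerance and tiller outgrowth, also fell. It had 8.75, 6.91 and 10.8 TPM in deficit, against 27.7, 25.4 and 21.5 TPM in control I in 35S TRAP (log2 fold change -1.41 ± 0.23, limma adjusted p = 7.05e-05). None of the groups in these contrasts overlapped.

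ARF, SAUR and dormancy-associated genes gave calls in both directions. OS12G0479400, similar to ARF 1, had 16.9, 25.3 and 28.6 TPM in deficit, against 6.59, 8.31 and 9.20 TPM in control I in TOTAL (log2 fold change 1.42 ± 0.26, limma adjusted p = 0.000124), while OS02G0628600, similar to ARF 8, had 5.32, 3.83 and 7.06 TPM, against 20.2, 19.8 and 21.9 TPM in 35S TRAP (log2 fold change -1.79 ± 0.29, limma adjusted p = 4.56e-05). The first rose and the second fell, each beyond the spread of its libraries. OS04G0608300, a SAUR domain gene, had 0.577, 1.10 and 0.359 TPM in deficit, against 29.1, 17.6 and 9.85 TPM in control I in RSS1 (log2 fold change -3.47 ± 0.39, limma adjusted p = 1.68e-07). OS09G0437500, the dormancy and auxin-associated gene, had 269.8, 417 and 618 TPM in deficit, against 16.0, 45.7 and 85.4 TPM in control I in QHB (log2 fold change 3.33 ± 0.51, limma adjusted p = 0.000724), and all 3 deficit libraries lay above all controls. OS08G0453200, similar to an auxin-repressed protein, had 36.0, 25.5 and 49.2 TPM in deficit, against 476, 237 and 276 TPM in control I in LSI1 (log2 fold change -3.11 ± 0.54, limma adjusted p = 0.00048). The SAUR gene OS02G0512000, abundant in LSI1, had 84.3, 136 and 106 TPM there in deficit, against 377, 352 and 337 TPM in control I (log2 fold change -1.73 ± 0.19, limma adjusted p = 7.65e-06), and neither gene's groups overlapped. Of the 9 members called higher in LSI1 than in 35S TRAP in control I, 5 were called lower and 0 higher in LSI1 deficit. The LSI1 control I libraries enter both comparisons, which by itself favours lower calls, and the same share for all genes was not taken. No conclusion is drawn from this count.

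**Figure D2:**
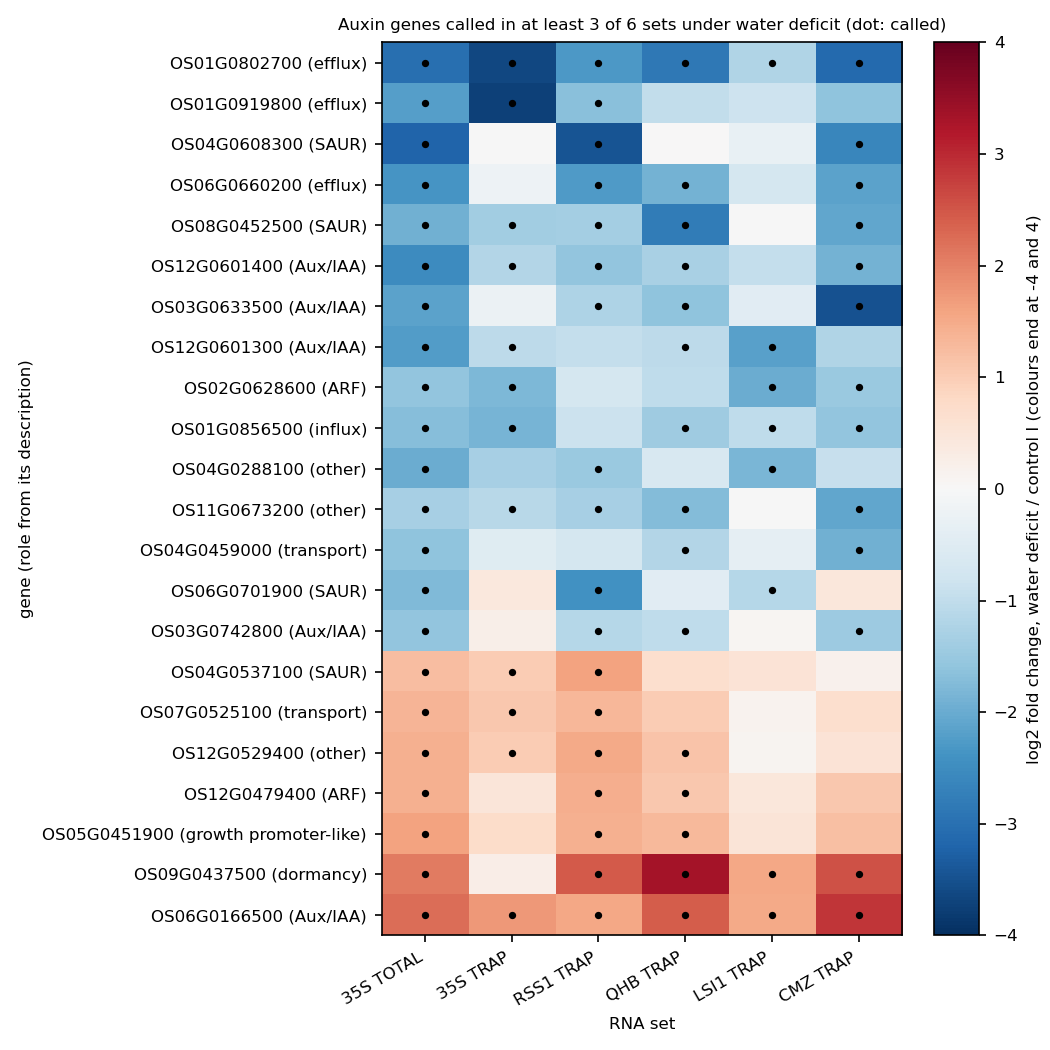
Log2 fold change of water deficit over control I for the auxin genes called in at least 3 of the 6 sets, with genes down the side and sets across. Red is higher and blue lower under deficit, dots mark calls; OS06G0166500 is higher and OS01G0802700 lower in all 6 sets.

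Proliferation markers were also lower under deficit in TOTAL, QHB and CMZ, while the other sets gave fewer lower calls or none. Of the 58 genes 34 were called lower and 2 higher under deficit in TOTAL, 24 lower and 1 higher in QHB, 9 lower and 1 higher in CMZ, 5 lower and 1 higher in RSS1, 6 lower and 1 higher in LSI1, and 0 lower and 1 higher in 35S TRAP. Their sum was 3430 to 3919 TPM in deficit, against 6207 to 6963 TPM in control I in TOTAL, 4625 to 5143 TPM, against 7046 to 8806 TPM, in QHB, 3372 to 4261 TPM, against 5508 to 7705 TPM, in CMZ, and 2446 to 3341 TPM, against 3590 to 3826 TPM, in 35S TRAP. In RSS1 the ranges, 4296 to 7444 TPM in deficit and 6247 to 8719 TPM in control I, overlapped. Their part in the falls was not tested.

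Whether the deficit response itself differed between the 7 TRAP lines was tested by a line by deficit interaction, fitted over all genes. It was called for 9 of 131 members, where 5.18% of all genes were called, and for 31 at an unadjusted p under 0.05. The count was 5 without LSI1 control I replicate 1 or 2. OS08G0453200 gave the clearest difference (limma adjusted p = 9.96e-05): relative to 35S TRAP its log2 response was higher by 1.82 in QHB and differed by -1.77 in LSI1. The response of OS07G0182400 in LSI1 differed from that in 35S TRAP by -3.43 log2 units (adjusted p = 0.00854, limma), and that of OS03G0633500 in CMZ differed by -3.26 (adjusted p = 0.0149, limma).

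Recovery after 1 day of irrigation was compared with deficit in TOTAL, 35S TRAP and RSS1, where several carriers and repressors were higher than in deficit. Of the efflux carriers 5 of 14 were higher and 0 lower in TOTAL, 2 of 13 higher and 0 lower in 35S TRAP, and 3 of 15 higher and 1 lower in RSS1. Of the Aux/IAA repressors 7 of 24 were higher and 1 lower in TOTAL, 3 of 23 higher and 1 lower in 35S TRAP, and 4 of 24 higher and 1 lower in RSS1. Against the deficit libraries, 26 of 124 members were higher and 6 lower in TOTAL, against 18.9% of all genes, 11.2% higher and 7.72% lower. In 35S TRAP 15 were higher and 4 lower, against 14.0% of all genes, 7.79% higher and 6.16% lower, and in RSS1 14 higher and 6 lower, against 11.5% of all genes, 6.24% higher and 5.27% lower. The 35S TRAP count was 12 without recovery replicate 2 or deficit replicate 1, and the RSS1 count was 13 without recovery replicate 1. Since deficit libraries enter both comparisons, a change against deficit and the change against control I are not independent, and the values are given side by side. OS01G0802700 had 20.2, 49.2 and 39.2 TPM in recovery in TOTAL and 39.4, 68.9 and 75.6 TPM in 35S TRAP, against the deficit levels given above (log2 fold change 4.21 ± 0.25, limma adjusted p = 4.43e-12 in 35S TRAP). The influx carrier OS01G0856500 had 55.5, 48.1 and 38.1 TPM in recovery, against 14.6, 10.8 and 11.5 TPM in deficit in TOTAL (log2 fold change 1.85 ± 0.20, limma adjusted p = 1.1e-07), and 31.4, 45.8 and 50.8 TPM in control I. OS12G0601400 had 239, 233 and 259.8 TPM in recovery, against 93.7, 92.8 and 77.5 TPM in deficit in RSS1 (log2 fold change 1.46 ± 0.27, limma adjusted p = 0.000308).

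OS06G0166500, which had been high in deficit, fell to 8.28, 23.8 and 19.5 TPM in recovery, against 61.6, 50.9 and 74.8 TPM in deficit in TOTAL (log2 fold change -1.90 ± 0.30, limma adjusted p = 2.53e-05). In the RSS1 line the efflux carrier OS06G0660200 had 26.7, 16.5 and 29.0 TPM in recovery, against 7.73, 5.50 and 3.56 TPM in deficit (log2 fold change 1.94 ± 0.43, limma adjusted p = 0.00206), and the Aux/IAA gene OS03G0633500 63.9, 69.6 and 63.8 TPM, against 18.9, 23.0 and 22.1 TPM (log2 fold change 1.58 ± 0.27, limma adjusted p = 0.000133). All of these recovery libraries lay outside the deficit range. The proliferation sum in recovery was 5861 to 7341 TPM in TOTAL, 3801 to 4445 TPM in 35S TRAP and 6716 to 10129 TPM in RSS1, above the deficit range in the first 2 sets and overlapping with it in RSS1. Of the 58 genes 33 were called higher than in deficit in TOTAL, 6 in 35S TRAP and 9 in RSS1, and their part in the rises was not tested.

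**Figure D3:**
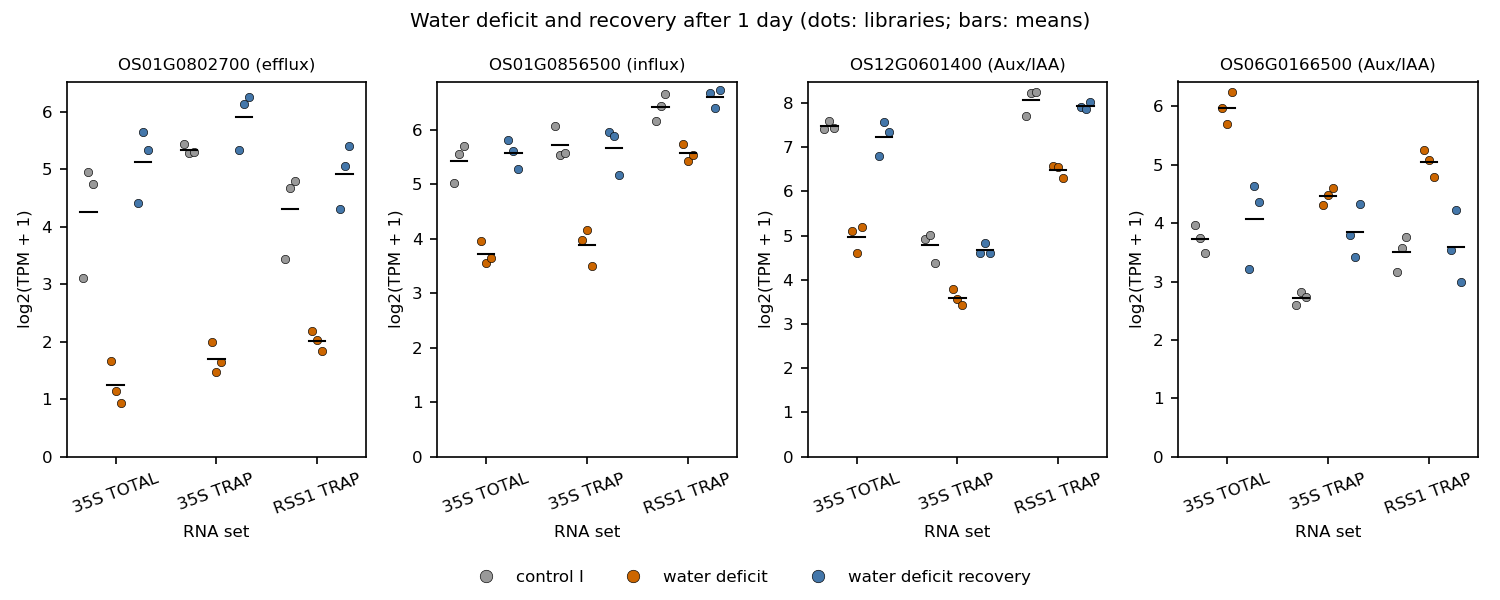
Level of 4 auxin genes in control I, water deficit and 1 day of recovery in 3 RNA sets. The y axis is log2(TPM + 1), dots are libraries and bars means of 3; the carriers OS01G0802700 and OS01G0856500 and the repressor OS12G0601400 dip in deficit, and OS06G0166500 peaks there.

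Submergence raised the efflux carrier OS09G0491740 and the dormancy gene OS03G0342900 in every set. Influx carriers in TOTAL and Aux/IAA repressors in all 3 sets gave calls in both directions, as given below. Of the 3 dormancy and auxin-repressed genes 2 were called higher in TOTAL, 1 in 35S TRAP and 3 in RSS1. In TOTAL 25 of 124 were higher and 26 lower than in control II, against 35.9% of all genes, 16.4% higher and 19.5% lower. In 35S TRAP 20 of 121 were higher and 11 lower, against 20.1% of all genes, 9.98% higher and 10.1% lower, and in RSS1 30 of 128 higher and 23 lower, against 38.3% of all genes, 19.4% higher and 18.9% lower. The shares of members called, 41.1% in TOTAL, 25.6% in 35S TRAP and 41.4% in RSS1, stood near these backgrounds. The median log2 fold change in RSS1 was 0.142 for the members, against 0.110 for all genes. Over the 3 sets 40 members were called higher and 32 lower at least once, none in both directions, and 60 in no set. The share of all genes over the 3 sets was not taken, so these counts too are not read as a trait of the members. The efflux carrier OS09G0491740 led the rises. It had 167, 114 and 52.0 TPM in submerged roots, against 5.69, 5.15 and 5.14 TPM in control II in RSS1 (log2 fold change 3.99 ± 0.36, limma adjusted p = 1.13e-09), 101, 81.5 and 54.9 TPM, against 6.57, 7.54 and 5.33 TPM in TOTAL (log2 fold change 3.39 ± 0.35, limma adjusted p = 1.5e-08), and 118, 129 and 84.6 TPM, against 12.0, 10.9 and 10.1 TPM in 35S TRAP (log2 fold change 3.20 ± 0.35, limma adjusted p = 1.58e-07). The groups were far apart in each set. Under deficit the same gene was not called in any of the 6 sets (log2 fold change 0.05 in TOTAL).

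Other carriers fell or rose. OS10G0147400, the influx carrier that was high in QHB, had 0.771, 0.840 and 2.35 TPM in submergence, against 14.3, 14.4 and 15.4 TPM in control II in TOTAL (log2 fold change -2.82 ± 0.23, limma adjusted p = 3.01e-10), and 2.23, 1.55 and 3.70 TPM, against 25.2, 25.5 and 29.0 TPM in RSS1 (log2 fold change -3.03 ± 0.24, limma adjusted p = 1.12e-10). In 35S TRAP, where control II held only 0.665, 0.669 and 1.11 TPM, it was not called (log2 fold change -0.11). OS05G0447200, another influx carrier, rose, with 55.1, 40.5 and 39.9 TPM in submergence, against 13.7, 7.91 and 14.8 TPM in control II in TOTAL (log2 fold change 1.84 ± 0.24, limma adjusted p = 4.09e-07). OS06G0660200 had 1.51, 2.81 and 1.83 TPM in submergence, against 21.6, 21.3 and 15.2 TPM in control II in TOTAL (log2 fold change -2.74 ± 0.23, limma adjusted p = 4.89e-10). The influx carriers thus moved in opposite directions in TOTAL. OS08G0529000, the carrier that had risen under deficit in 35S TRAP, had 11.0, 13.2 and 7.01 TPM in submergence, against 0.343, 3.74 and 0.355 TPM in control II in RSS1 (log2 fold change 2.43 ± 0.66, limma adjusted p = 0.00372).

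A GH3 gene and a dormancy gene were called higher in all 3 sets. OS01G0221100, a GH3 family gene, had 11.7, 17.6 and 17.5 TPM in submergence, against 2.10, 2.37 and 3.91 TPM in control II in 35S TRAP (log2 fold change 2.14 ± 0.32, limma adjusted p = 1.41e-05). OS03G0342900, the dormancy and auxin-associated gene, had 1416, 1356 and 1592 TPM, against 174, 176 and 216 TPM in TOTAL (log2 fold change 2.94 ± 0.25, limma adjusted p = 3.82e-10), the highest levels of any member in TOTAL submergence. OS08G0453200, the auxin-repressed gene that had fallen under deficit in LSI1, had 183, 126 and 122 TPM, against 22.2, 24.2 and 14.0 TPM in RSS1 (log2 fold change 2.79 ± 0.25, limma adjusted p = 9.79e-10). In none of these did the groups overlap. The cyclophilin OS02G0121300 fell in all 3 sets, with 346, 257 and 348 TPM, against 3551, 2648 and 2585 TPM in TOTAL (log2 fold change -3.20 ± 0.30, limma adjusted p = 2.07e-09).

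Aux/IAA repressors went both ways, with 5 higher and 6 lower of 24 in TOTAL, 4 higher and 1 lower of 23 in 35S TRAP, and 7 higher and 5 lower of 24 in RSS1. OS06G0166500 was higher in all 3 sets, as under deficit, with 61.9, 50.2 and 39.5 TPM in submergence, against 9.56, 10.7 and 15.2 TPM in control II in TOTAL (log2 fold change 2.01 ± 0.30, limma adjusted p = 4.54e-06). OS03G0633500 had 2.32, 4.21 and 3.67 TPM, against 48.0, 66.7 and 65.2 TPM in RSS1 (log2 fold change -3.80 ± 0.27, limma adjusted p = 2.87e-11). OS02G0228900 had 1.34, 1.67 and 3.05 TPM, against 30.7, 42.0 and 33.2 TPM in RSS1 (log2 fold change -3.62 ± 0.22, limma adjusted p = 2.79e-12). These repressors had been among the RSS1-high genes of control I. SAUR genes gave 6 higher and 8 lower of 22 in TOTAL. OS02G0769100 had 153, 132 and 149 TPM, against 8.59, 15.4 and 17.7 TPM in TOTAL (log2 fold change 3.34 ± 0.30, limma adjusted p = 1.5e-09). OS02G0143400, similar to small auxin up RNA1, had 0.344, 0.326 and 0.317 TPM, against 15.4, 23.2 and 17.1 TPM in TOTAL (log2 fold change -3.86 ± 0.40, limma adjusted p = 1.65e-08). Its submergence values lie close to the floor that the deposited values appear to have, so the size of this fall is uncertain. No library of one group reached the range of the other in these contrasts. ARF factors were called higher in 5 of 21 and lower in 0 in RSS1, and OS02G0141100, similar to ARF 5, had 5.96, 7.73 and 9.45 TPM, against 3.38, 1.61 and 1.65 TPM in 35S TRAP (log2 fold change 1.46 ± 0.31, limma adjusted p = 0.000735).

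The submergence response was compared directly between RSS1 and 35S TRAP by an interaction term. It was called for 23 of 121 members, 7 with a more positive response in RSS1 and 16 with a more negative one, where 13.9% of all genes were called. The count was 15 without 35S TRAP control II replicate 1. The difference was largest in OS04G0288100, whose log2 response was -3.27 in RSS1 and 0.83 in 35S TRAP (difference -4.10, limma adjusted p = 0.0173), and OS02G0143400, with -3.93 in RSS1 and -0.06 in 35S TRAP (difference -3.86, adjusted p = 9.05e-05 by limma). OS10G0147400 responded by -3.03 in RSS1 and -0.11 in 35S TRAP (difference -2.92, adjusted p = 0.00176 by limma). Its 35S TRAP control II libraries, given above, were so low that a large fall could not show on the log2(TPM + 1) scale. In this gene, and in others that start low in 35S TRAP, a differing response and a low start cannot be told apart. For OS11G0673200, similar to an auxin-induced beta-glucosidase, the response was in 35S TRAP instead, where it had 21.5, 33.4 and 20.7 TPM in submergence, against 2.00, 2.97 and 1.72 TPM in control II, while RSS1 had 18.7, 10.3 and 12.7 TPM, against 9.90, 12.9 and 11.6 TPM (difference -2.78, adjusted p = 0.00133 by limma). OS03G0342900 rose in both lines, by 3.18 in RSS1 and 1.86 in 35S TRAP (difference 1.32, adjusted p = 0.00921 by limma).

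**Figure D4:**
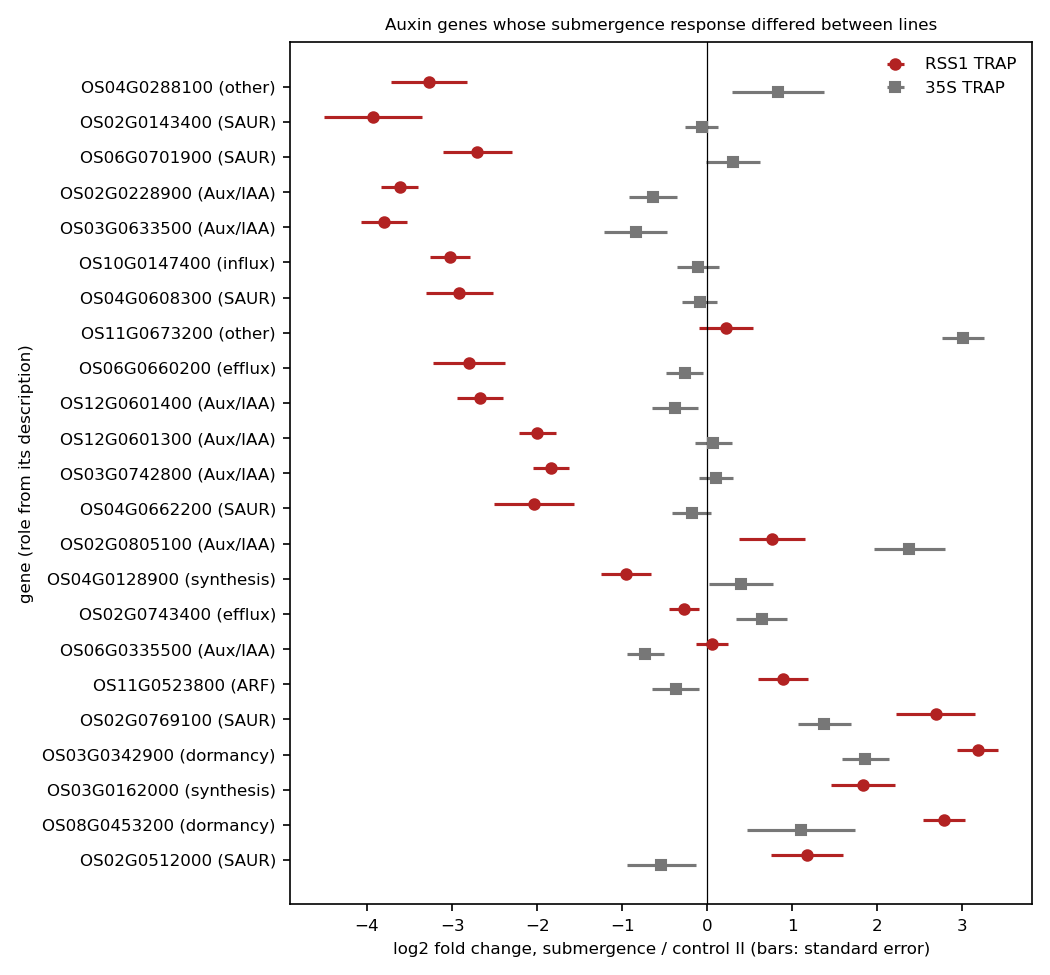
Log2 fold change of submergence over control II in RSS1 TRAP (red circles) and 35S TRAP (grey squares) for the 23 auxin genes whose response differed between the lines, with standard errors as bars. OS03G0162000 fell under the filter on low values in the 35S TRAP set and has no 35S point. For 16 of the genes the RSS1 response lies to the left of the 35S response, and genes that start low in 35S TRAP can fall little there.

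Marker sums also changed under submergence, though not in every set. The proliferation sum was 3570 to 3968 TPM in submergence, against 6082 to 7112 TPM in control II in TOTAL, and 3214 to 3928 TPM, against 6035 to 7609 TPM, in RSS1. In 35S TRAP it was 2934 to 3297 TPM, against 2979 to 3394 TPM, and the ranges overlapped. Of the 58 genes 33 were called lower and 2 higher in TOTAL, 36 lower and 3 higher in RSS1, and 3 lower and 2 higher in 35S TRAP. Of the 45 green-tissue genes 20 were called higher in TOTAL, 14 in RSS1 and 28 in 35S TRAP. The RSS1 gene itself had 38.7 to 165 TPM in submerged RSS1 libraries, against 401 to 571 TPM in control II, so the gene whose promoter defines the line was itself lower. The part of these markers in the results was not tested.

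After 1 day out of the water 10 of 124 members were higher and 26 lower than in submergence in TOTAL, against 26.3% of all genes, 12.7% higher and 13.6% lower. In 35S TRAP 3 were higher and 19 lower, against 16.3% of all genes, 8.37% higher and 7.92% lower, and in RSS1 19 higher and 21 lower, against 29.5% of all genes, 16.0% higher and 13.5% lower. OS09G0491740 had 12.3, 11.8 and 12.7 TPM in recovery, against 167, 114 and 52.0 TPM in submergence in RSS1 (log2 fold change -2.92 ± 0.36, limma adjusted p = 3.66e-07). OS02G0228900 had 40.3, 40.9 and 31.4 TPM in recovery, against 1.34, 1.67 and 3.05 TPM in submergence in RSS1 (log2 fold change 3.70 ± 0.22, limma adjusted p = 1.41e-11), a range that overlaps with the 30.7, 42.0 and 33.2 TPM of control II. OS10G0147400 had 18.5, 18.4 and 20.1 TPM in recovery in RSS1, against 2.23, 1.55 and 3.70 TPM in submergence (log2 fold change 2.56 ± 0.24, limma adjusted p = 4.69e-09), still below each of its control II libraries. OS03G0342900 likewise had 449, 571 and 372 TPM in recovery, against 1416, 1356 and 1592 TPM in submergence in TOTAL (log2 fold change -1.66 ± 0.25, limma adjusted p = 6.01e-06), with 174, 176 and 216 TPM in control II. The recovery and submergence comparisons share the submergence libraries. In RSS1 the proliferation sum of the recovery libraries was 7602 to 7994 TPM, in TOTAL 5323 to 6786 TPM and in 35S TRAP 3226 to 3881 TPM.

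Waterlogging, standing water over the roots, was tested in TOTAL, 35S TRAP and LSI1 and gave few calls there. In TOTAL 0 of 124 members were called by limma, against 0.838% of all genes, 0.328% higher and 0.509% lower, and 28 had an unadjusted p under 0.05. In 35S TRAP 0 of 121 were called by limma, against 0.171% of all genes, 0.0228% higher and 0.148% lower, and 9 had an unadjusted p under 0.05. The median log2 fold change of all genes in TOTAL was 0.179. In LSI1 2 of 119 were called, both higher, against 1.55% of all genes, 0.752% higher and 0.794% lower. Both are named here because the count is small, after their values were seen. OS02G0769100, a SAUR gene, had 9.92, 9.57 and 10.8 TPM in waterlogged roots, against 3.16, 3.98 and 3.71 TPM in control I (log2 fold change 1.27 ± 0.31, limma adjusted p = 0.0442), and OS07G0576500, similar to GH3-8, had 2.90, 2.35 and 1.88 TPM, against 0.507, 0.127 and 0.440 TPM (log2 fold change 1.31 ± 0.26, limma adjusted p = 0.0201). The groups did not overlap, yet the count was 0 or 1 without any 1 of the 6 libraries, 8 with only these 2 groups in the fit, and 3 (1 higher and 2 lower) with library medians set equal.

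Genes of the pathway outside the word rule were followed as a second list of 20, made from descriptions of tryptophan aminotransferase, TIR1-type receptors, GH3 relatives and similar terms. Under deficit 1 of 19 tested was higher and 3 lower in TOTAL, and 1 of 20 higher and 4 lower in 35S TRAP, beside 10.9% and 8.38% of all genes called lower. In RSS1 1 of 20 was higher and 1 lower, in LSI1 1 of 18 higher and 1 lower, in CMZ 1 of 19 higher and 3 lower, and in QHB 0 of 18 were called. In submergence 0 of 19 were higher and 4 lower in TOTAL, 0 of 20 higher and 1 lower in 35S TRAP, and 0 of 20 higher and 5 lower in RSS1, beside 19.5%, 10.1% and 18.9% of all genes called lower in these sets. OS01G0169800, a tryptophan aminotransferase of IAA synthesis, had 6.58, 4.55 and 6.32 TPM in deficit, against 19.5, 25.7 and 26.6 TPM in control I in TOTAL (log2 fold change -1.87 ± 0.29, limma adjusted p = 1.58e-05). In submerged RSS1 roots it had 9.24, 12.2 and 13.4 TPM, against 46.2, 56.5 and 41.0 TPM in control II (log2 fold change -1.96 ± 0.22, limma adjusted p = 5.81e-08). Neither contrast had any overlap, and this first enzyme of the route thus fell under deficit in TOTAL and under submergence in RSS1. It was not called in QHB deficit, and its values in the other sets are not given here. No gene of the list was called under waterlogging in the 3 sets tested.

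Chromatin upstream of all 132 genes was read in 35S nuclei, as deposited ATAC-seq read counts per upstream region. Totals were 7378002 to 10647423 counts in submergence, against 5899153 to 7190848 in control II, and 1688253 to 4235407 in deficit, against 1927325 to 5319257 in control I. Counts were tested with edgeR's quasi-likelihood F test, and regions with an adjusted p under 0.05 were called. In submergence 13 members were called, 6 higher and 7 lower, against 6.70% of all regions, 2.94% higher and 3.76% lower. The count was 5 to 8 without control II replicate 1, 2 or 3 or submergence replicate 1 or 2, and 28 with only these 2 groups in the fit. The values that follow are counts scaled to library size (CPM).

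Of the 6 regions with higher signal, those upstream of OS09G0491740, OS03G0342900 and OS09G0545300 are described because RNA of these genes also rose. RNA is set beside only some of the 13 called regions here. How often chromatin and RNA moved together was not tested. That of the dormancy gene OS03G0342900 had 268, 244 and 248 CPM in submergence, against 148, 133 and 154 CPM in control II (log2 fold change 0.86, edgeR adjusted p = 0.0441), and that of the efflux carrier OS09G0491740 22.1, 25.2 and 22.0 CPM, against 13.9, 12.8 and 11.5 CPM (log2 fold change 0.91, edgeR adjusted p = 0.00747). OS09G0545300, a SAUR gene described as a negative regulator of auxin synthesis and transport, had 29.9, 31.9 and 28.9 CPM, against 17.6, 11.8 and 12.9 CPM (log2 fold change 1.16, edgeR adjusted p = 0.00015). Each of the 3 genes was called higher in all 3 RNA sets under submergence. The lowest signal relative to control was upstream of the SAUR gene OS02G0143400, with 10.1, 6.10 and 8.81 CPM, against 24.3, 19.9 and 26.4 CPM (log2 fold change -1.45, edgeR adjusted p = 2.64e-06), and the groups did not overlap in these 4 regions. RNA of that gene was called lower in TOTAL and RSS1 and not in 35S TRAP (log2 fold change -0.06). Regions of carriers and conjugation genes were also lower. The region of OS11G0186500, similar to a GH3 gene, had 9.40, 10.3 and 9.08 CPM, against 16.1, 17.7 and 21.0 CPM (edgeR adjusted p = 0.0154), and its RNA in TOTAL was called lower (log2 fold change -1.16 ± 0.29, limma adjusted p = 0.00158). That of the efflux carrier OS01G0802700 had 15.8, 10.6 and 14.8 CPM, against 26.2, 28.0 and 19.3 CPM (edgeR adjusted p = 0.0134), while its RNA in TOTAL was not called (log2 fold change -0.49).

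**Figure D5:**
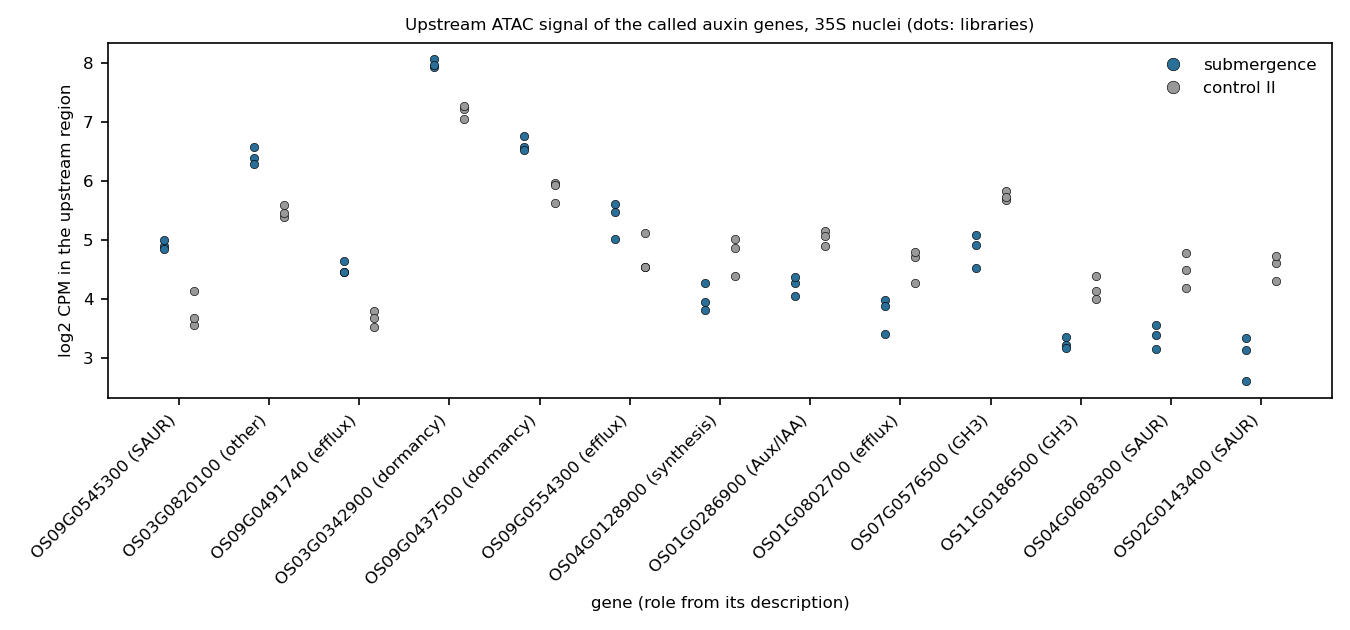
ATAC-seq signal upstream of the 13 auxin genes called in submergence, as log2 CPM in each of 3 submergence (blue, left) and 3 control II (grey, right) libraries of 35S nuclei. Genes run from the highest to the lowest log2 fold change, OS09G0545300 to OS02G0143400.

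Under deficit 4 members were called, 2 higher and 2 lower, against 0.797% of all regions, 0.509% higher and 0.288% lower, and 20 had an unadjusted p under 0.05. The count was 1 to 3 without any 1 library, with 1 left without deficit replicate 3 and 2 without deficit replicate 2 or control I replicate 1 or 3. The region of OS02G0643800, a SAUR gene, had 39.1, 49.9 and 73.0 CPM in deficit, against 22.8, 20.3 and 21.9 CPM in control I (log2 fold change 1.31, edgeR adjusted p = 0.00133). That of the amidohydrolase OS01G0706900 had 32.0, 25.7 and 50.3 CPM, against 11.4, 18.4 and 17.8 CPM (log2 fold change 1.14, edgeR adjusted p = 0.00423). On the lower side, OS04G0608300 had 19.0, 8.70 and 11.1 CPM, against 21.3, 28.0 and 26.4 CPM (log2 fold change -1.09, edgeR adjusted p = 0.0179), and its RNA had the largest fall of all members tested in TOTAL and in RSS1. The region of OS12G0190100, similar to an auxin-independent growth promoter, had 38.5, 37.8 and 47.7 CPM, against 90.3, 67.9 and 80.3 CPM (log2 fold change -0.98, edgeR adjusted p = 0.0318). Deficit and control libraries did not overlap in any of the 4, and OS04G0608300 was the gene called lower in both stresses. RNA of the other genes with a called region is not set beside it here.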

How the data were processed

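Roots of the lines described above gave 187 RNA libraries and 51 ATAC-seq libraries, grouped by their titles. The deposited TPM values were made by the authors from genes above 3 CPM in at least 1 condition, with quantile normalisation in limma voom, per the file headers. The submitters' processing notes name Bowtie2, TopHat2, HOMER, limma and the build IRGSP-1.0, without saying which tool made which file. The deposited ATAC-seq values are raw read counts per upstream region, per the file headers. The sources used here do not say whether counting used strand, so overlapping genes, close copies and SAUR clusters may share reads. TPM sums were 999953 to 1000051 per library, so RNA depth is unknown.

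Genes that reached 1 TPM in 3 or more libraries of a fit were tested with limma 3.58.1 (R 4.3.3, trended variance) on log2(TPM + 1), with 1 fit per line or RNA type over all its environments and 1 fit of all TRAP lines per environment for line contrasts. A call needed a Benjamini-Hochberg adjusted p under 0.05 over all genes and a log2 fold change of at least 1, or the adjusted p alone for interactions. ATAC-seq counts were tested with edgeR 4.0.16 (TMM, quasi-likelihood), and DESeq2 1.42.0 was an alternative. The limma and edgeR steps were tested on simulated data. Members and gene lists were chosen with earlier results of these data known. Genes were named if called, averaging at least 5 TPM in the higher group and without overlap, up to 8 per direction and contrast, with up to 4 of the highest mean per role and the carriers added; a named gene could be followed elsewhere. Alternatives were a pseudocount of 0.1, no filter, median rescaling, 2-group fits, control I for submergence, a replicate block and leaving out each library. The replicate numbers, shared in the labels, paired the samples in 8 of 26 RNA contrasts, where every pair's deviations correlated above 0.1 (such as 0.306 to 0.53 in waterlogging TOTAL). No sequence is shown, as the tables used here hold none. Other environments of the fitted lines, such as waterlogging recovery or waterlogging in RSS1 and CMZ, and the control I, field and plate libraries of the other lines entered the shared fits without a contrast of their own. SCR and CASP deficit entered the interaction. SCR and CASP waterlogging and recovery libraries and ATAC-seq lines other than 35S were not used in any test here.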

Additional observations from a re-analysis of the deposited data

Results flagged for a closer look

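Responses to water deficit that differed between the 7 TRAP lines stood out for 9 members, by limma's F test of the line by deficit interaction over all genes with Benjamini-Hochberg adjustment. The auxin-repressed gene OS08G0453200 had the lowest value (limma adjusted p = 9.96e-05). The Aux/IAA genes were OS07G0182400 (limma adjusted p = 0.00854), OS03G0633500 (0.0149) and OS03G0742800 (0.0291). The SAUR genes were OS04G0608300 (limma adjusted p = 0.0175), OS08G0452500 (0.0362) and OS02G0643800 (0.0494). The ARF gene OS06G0702600 had a limma adjusted p of 0.0189, and the flavin monooxygenase OS01G0732700 one of 0.0296. OS07G0182400, OS03G0633500 and OS08G0453200 were called under every alternative run, and OS04G0608300 under each except a pseudocount of 0.1 (limma adjusted p = 0.0551). The other 5 lost the call without at least 1 library.

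Responses to submergence that differed between RSS1 and 35S TRAP stood out for 23 members, by the interaction term. The values that follow are the log2 response in RSS1 less that in 35S TRAP. Where a gene was already low in 35S TRAP control II, a negative value cannot be told apart from that low start. Among SAUR genes the difference was -3.86 for OS02G0143400, -3.01 for OS06G0701900, -2.83 for OS04G0608300, -1.85 for OS04G0662200, 1.31 for OS02G0769100 and 1.72 for OS02G0512000. Among Aux/IAA genes it was -2.99 for OS02G0228900, -2.96 for OS03G0633500, -2.30 for OS12G0601400, -2.07 for OS12G0601300, -1.94 for OS03G0742800, -1.62 for OS02G0805100 and 0.78 for OS06G0335500. Among carriers and synthesis genes it was -2.92 for OS10G0147400, -2.54 for OS06G0660200, -1.35 for OS04G0128900 and -0.91 for OS02G0743400. The ARF gene OS11G0523800 had 1.26, and the dormancy and auxin-repressed genes OS03G0342900 and OS08G0453200 had 1.32 and 1.68. OS04G0288100 had -4.10 and OS11G0673200 had -2.78. The remaining gene, the monooxygenase OS03G0162000, was under the filter on low values in the 35S TRAP set. Without 35S TRAP control II replicate 1 the calls of OS02G0512000, OS02G0769100, OS02G0805100, OS03G0162000, OS04G0128900, OS06G0335500, OS06G0660200 and OS08G0453200 were lost, with limma adjusted p values of 0.0516 to 0.0905.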

How the results depend on the processing

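No alternative reversed a called direction. Counts moved by over 1.5 times with only the 2 groups compared in the fit, to 28 regions in ATAC-seq submergence, to 11 genes in CMZ deficit and to 8 in LSI1 waterlogging. The LSI1 waterlogging count was also 1 with no filter and 0 with a pseudocount of 0.1, which change the genes or values tested; for the other counts the cause was not tested. Splits of higher against lower calls shifted by over 10 points with median rescaling in CMZ control I (26 higher and 16 lower), RSS1 field (11 and 5) and LSI1 waterlogging (1 and 2), and with 2-group fits in RSS1 field (11 and 6), LSI1 waterlogging (4 and 4) and ATAC-seq deficit (2 and 1). They also shifted in 35S TRAP submergence recovery with a pseudocount of 0.1 (6 and 18) and in ATAC-seq deficit with DESeq2 (1 and 3), which called 15 regions in submergence.

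Leaving out 1 library gave these lowest and highest counts: ATAC-seq submergence 5 to 11 and deficit 1 to 3, RSS1 field 9 to 15, the submergence interaction 15 to 29, the deficit interaction 5 to 10, deficit in CMZ 9 to 15 and in QHB 18 to 26, deficit recovery in 35S TRAP 12 to 21 and in RSS1 13 to 17, and LSI1 waterlogging 0 to 1. The other counts stayed within 1.5 times of their value. Of the calls of named genes, 20 of 420 were lost with a pseudocount of 0.1, 11 with median rescaling, 7 without the filter, 16 of 385 with 2-group fits, 2 of 58 with control I as the reference and 416 of 2994 over all single libraries left out.

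With the replicate number as a block, all 30 counts stayed within 1.5 times (QHB against 35S TRAP in control I had 57 calls), and in the 8 contrasts whose numbers paired the samples no call of a named gene was lost. Elsewhere the block ended the calls of OS11G0673200 in CMZ deficit (limma adjusted p = 0.0514) and OS05G0451900 in QHB deficit (limma adjusted p = 0.0633). In the other contrasts the samples share only a number. The unknown depth of the TPM values and 3 libraries per group limit how small a change could be called, and in ATAC-seq deficit the lower totals do.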

Other observations

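OS01G0231000, an Aux/IAA family gene among the more abundant members, was called in opposite directions under deficit in QHB and LSI1. It had 70.9, 102 and 94.3 TPM in deficit, against 189, 178 and 197 TPM in control I in QHB (log2 fold change -1.09 ± 0.18, limma adjusted p = 0.00154). In LSI1 it had 72.5, 70.0 and 71.6 TPM in deficit, against 29.5, 26.4 and 35.5 TPM in control I (log2 fold change 1.21 ± 0.18, limma adjusted p = 0.000106). The deficit libraries of both lines thus came to lie at 69.97 to 101.7 TPM, while their controls did not overlap between lines. The line by deficit interaction over all 7 lines did not call this gene (limma adjusted p = 0.225). In submergence it had 42.1, 48.7 and 56.4 TPM, against 123, 107 and 132 TPM in control II in TOTAL (log2 fold change -1.29 ± 0.19, limma adjusted p = 2.98e-06).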
